A study of Mus musculus with 4 samples.

Results

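The lactate export and pyruvate import route was described through 10 mouse genes: the lactate dehydrogenase genes Ldha, Ldhb and Ldhd, the monocarboxylate carrier genes Slc16a1, Slc16a3 and Slc16a7, the carrier-partner genes Bsg and Emb, and the mitochondrial pyruvate carrier genes Mpc1 and Mpc2. They were taken by gene symbol from the 54838 genes listed in each library, and each symbol matched 1 row. The libraries come from Hepa1-6, an established cell line of mouse liver carcinoma. The 2 libraries of the group NC carry wild-type Acvr2a, the gene of an activin type II receptor, and the 2 libraries of the group KO come from subclones in which Acvr2a was knocked out. The labels name no treatment in either group, do not say how many subclones the KO libraries represent or whether the 2 samples of a group were separate cultures, and p-values therefore measure the spread between these samples, which may be technical. The series' title ties reduced ACVR2A to lactate production and hyperglycolysis, the question to which these genes belong.

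Pyruvate made by glycolysis in the cytosol has a pair of main routes. Lactate dehydrogenase reduces it to lactate while turning NADH back into NAD+, and monocarboxylate carriers of the SLC16 family move lactate and a proton across the plasma membrane. Alternatively the MPC1 and MPC2 proteins, which work as a heteromer in the inner mitochondrial membrane, bring pyruvate to pyruvate dehydrogenase and pyruvate carboxylase. The carriers MCT1 and MCT4 need basigin, the product of Bsg, as an ancillary protein to reach the cell surface. Embigin, the product of Emb, does the same mainly for MCT2.

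The targeted gene and the depth were examined first. Acvr2a had 81 (NC 1), 108 (NC 2), 75 (KO 1) and 97 (KO 2) counts, and its level did not separate the groups (log2 fold change -0.21, SE 0.20, edgeR quasi-likelihood, adjusted p = 0.433), with values of -0.056 without KO 1 and -0.39 without KO 2. Part of its exonic sequence, 446 bases, lies opposite exons of Orc4, and the count covers the whole gene, so its RNA is no check on the group labels, which are used here as names. Library totals ran from 11597923 to 13910582 counts. The hepatoma markers had a summed level of 5705 to 5948 TPM in NC and 4477 to 4967 TPM in KO over 13 genes. Apoe was the highest, with a mean of 2532 TPM over the 4 libraries. Apoa1 and Apoa2 were low, with means of 1.67 and 1.36 CPM in NC, and 2 of the 13 had too few counts to be tested. Of the 11 tested 2 were higher, 4 lower and 5 did not pass an adjusted p of 0.05. Over all genes tested 19.7% were higher and 18.2% lower. Afp, Hnf4a and Apoe fell (log2 fold change from -1.21 to -0.93), while Trf (0.54) and Alb (0.41) rose. Of 10 leukocyte markers 2 were at 0, Cd3e among them, and the summed level, most of it Cd68 (log2 fold change 1.20, adjusted p = 1.34e-08), was 24.75 to 29.6 TPM in NC and 57.8 to 69.8 TPM in KO. Of 10 endothelial markers 6 were at 0 and the sum was at most 1.15 TPM. Fibroblast and stellate markers summed to 1033 to 1095 TPM in NC and 1234 to 1239 TPM in KO over 10 genes, nearly all of it Dcn, with Col3a1, Lum, Lrat and Reln at 0. Of the 3 tested genes of that list Col1a1 rose from 0.444 to 2.96 CPM (log2 fold change 2.73, adjusted p = 3.04e-05). Des rose from 3.88 to 9.45 CPM (1.28, adjusted p = 2.76e-05). Dcn itself did not pass (0.16, edgeR quasi-likelihood, adjusted p = 0.193). The part of these levels in the results below was not tested.

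Upstream sequences were collected for the 8 genes with an entry among RefSeq promoters (GRCm38.p6). Bsg and Slc16a7 have no entry. The 4 shown are those whose window, the 250 bases upstream of a RefSeq start, holds ACGTG, the core letters bound by hypoxia-inducible factors, read on both strands, and they belong to genes with different levels and changes described below. Capitals mark each match to ACGTG or its reverse complement. Bases that GENCODE annotates as untranslated region are not shown, and 1 of the 2 Slc16a3 matches falls in the 14 bases left out there.
Ldha, chr7:46845554-46845803, plus strand: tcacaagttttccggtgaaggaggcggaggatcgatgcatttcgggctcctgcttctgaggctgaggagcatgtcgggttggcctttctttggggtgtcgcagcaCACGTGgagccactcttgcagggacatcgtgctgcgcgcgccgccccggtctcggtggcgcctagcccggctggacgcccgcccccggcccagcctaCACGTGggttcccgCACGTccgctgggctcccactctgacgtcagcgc
Ldhd, chr8:111630375-111630586, minus strand: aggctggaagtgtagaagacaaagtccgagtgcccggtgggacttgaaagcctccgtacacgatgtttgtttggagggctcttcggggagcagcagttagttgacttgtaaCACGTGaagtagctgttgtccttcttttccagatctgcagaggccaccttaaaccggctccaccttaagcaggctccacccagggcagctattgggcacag
Slc16a1, chr3:104638414-104638663, plus strand: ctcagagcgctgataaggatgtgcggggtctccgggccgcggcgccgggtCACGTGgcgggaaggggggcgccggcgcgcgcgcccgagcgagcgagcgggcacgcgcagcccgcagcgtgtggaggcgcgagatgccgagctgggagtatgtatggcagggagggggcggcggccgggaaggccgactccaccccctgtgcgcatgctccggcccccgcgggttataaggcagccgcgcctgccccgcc
Slc16a3, chr11:120948817-120949052, plus strand: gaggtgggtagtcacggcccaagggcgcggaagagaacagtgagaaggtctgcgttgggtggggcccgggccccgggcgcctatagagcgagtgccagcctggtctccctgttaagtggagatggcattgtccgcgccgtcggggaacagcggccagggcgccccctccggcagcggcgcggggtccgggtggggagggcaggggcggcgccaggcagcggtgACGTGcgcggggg

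The first Ldha entry holds ACGTG at 5 positions, and 4 of them are its 2 CACGTG matches, since CACGTG, the E-box letters bound by MYC, reads as ACGTG on both strands. The Ldhd and Slc16a1 sequences each hold 1 CACGTG. Among 32851 RefSeq promoter entries, 16.6% hold ACGTG in the same window, 28.2% hold GCGTG and 6.02% hold CACGTG. A second Ldha entry, the Ldhb and Emb entries, both Mpc1 entries and the Mpc2 entry hold no ACGTG, while the Slc16a1 window holds GCGTG at 2 positions and the second Ldha entry, the Ldhb entry, 1 Mpc1 entry and the Mpc2 entry at 1 position each. The GC content of the windows ran from 54.4% to 76.4%. A match describes letters and shows no binding.

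Levels per transcript length differed widely among the genes and are given here as the authors' TPM (transcripts per 1000000, scaled for transcript length). Ldha and Bsg were the highest, with means of 1547 and 1218 TPM in NC. Slc16a1, Mpc2 and Mpc1 followed at 21.7, 20.7 and 14.99 TPM, and Ldhd at 3.26 TPM. Ldhb, Slc16a3, Slc16a7 and Emb were at or below 0.37 TPM in each library. In NC the libraries of Slc16a1 (21.4 and 21.99 TPM) lay within those of Mpc2 (18.25 and 23.1 TPM), so that pair had no order, and in KO the same held for Mpc1 (13.9 and 14.3 TPM) within Mpc2 (13.6 and 17.7 TPM). In KO Bsg stood above Ldha, at a mean of 2362 against 1700 TPM.

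Of the 10 genes 6 had enough counts to be tested, and 2 passed an adjusted p of 0.05, Bsg and Ldhd, both higher in KO. Among all 12510 genes tested 37.9% passed, 19.7% higher and 18.2% lower, so the share among the 6 was close to the background. NC and KO libraries were fully separated in CPM (counts per 1000000 counts, with library sizes scaled by TMM) for 5 of the 6 genes, where 69.4% of all genes tested did not overlap, 34.8% with KO higher and 34.7% with KO lower. Bsg and Ldhd were higher in both KO libraries, Slc16a1, Mpc1 and Mpc2 were lower in both, and Ldha overlapped. Of the 6 log2 fold changes of KO over NC 3 were above 0, against 49.6% of all genes tested, and their median was -0.065, against -0.0037 over all. That median was -0.017 without NC 1 and -0.024 without KO 2, and above 0 on TPM (0.024 with limma on log2(TPM + 1)) and with the length trend removed (0.025). Means below are given ± SD over the 2 libraries of a group. In bulk RNA, fewer cells that express a gene and less of its RNA per cell cannot be told apart.

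**Figure D1:**
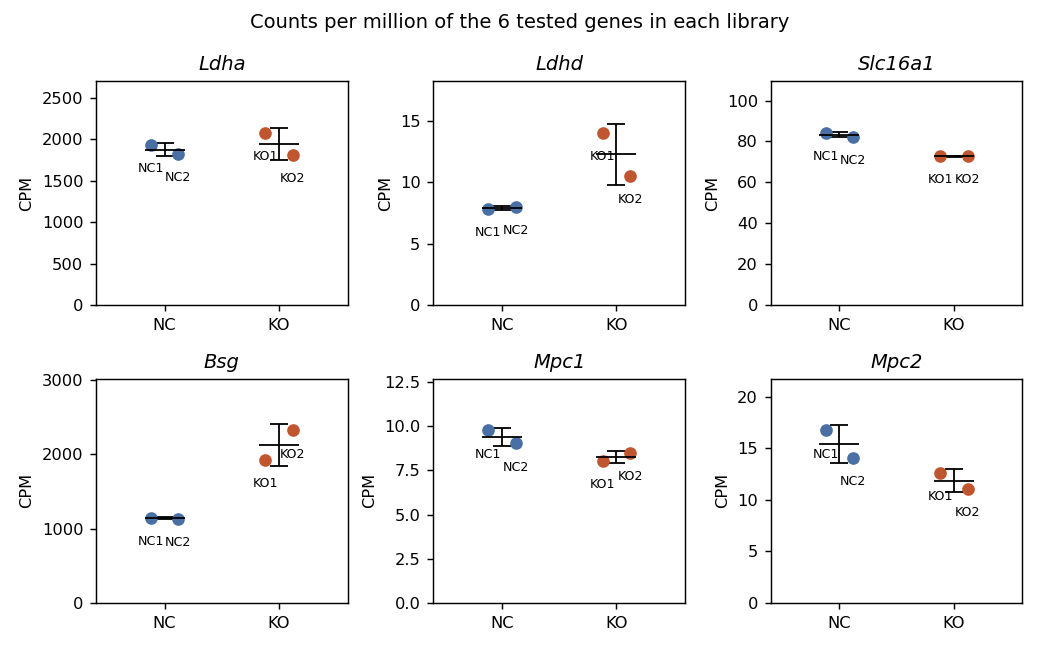
CPM (vertical axes, from 0) of the 6 tested genes in each library, NC in blue and KO in orange, with the group mean and SD (n = 2) in black. Bsg and Ldhd are higher in both KO libraries, Slc16a1, Mpc1 and Mpc2 are lower in both, and the Ldha libraries overlap.

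Ldha encodes the M subunit of lactate dehydrogenase, the form that dominates in muscle and in most tumours. Its row (ENSMUSG00000063229.15, chromosome 7, 46841475 to 46855627, GRCm38) held 21895 (NC 1), 25238 (NC 2), 27348 (KO 1) and 24362 (KO 2) counts, and it ranked 31 among all genes tested by mean CPM. The level was 1926 and 1822 CPM in NC and 2076 and 1804 CPM in KO. KO 1 was the highest library and KO 2 the lowest, so the groups overlapped. The log2 fold change was 0.050 (SE 0.10, 95% interval -0.15 to 0.25, edgeR quasi-likelihood, adjusted p = 0.729), and without KO 1 it was -0.053. On the TPM scale both NC libraries were at 1547 and KO was at 1830 and 1571, without overlap, but limma on log2(TPM + 1) gave 0.13 with an adjusted p of 0.485. Processed pseudogenes can share reads with Ldha: Ldha-ps2 held 1 to 3 counts per library and Ldha-ps held none, while unnamed copies were not examined.

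Ldhb encodes the H subunit, the form typical of heart. It had 1 count, in NC 2, and 0 in the other libraries, and a count of 0 allows up to 0.259 CPM in the least deep library (3 counts). Ldha therefore made up at least 99.99% of the summed TPM of Ldha, Ldhb and the testis form Ldhc in each library. Ldhc was listed at 0 TPM throughout.

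Ldhd encodes a mitochondrial enzyme that oxidises D-lactate, the mirror-image form made from methylglyoxal by the glyoxalases. Its row (ENSMUSG00000031958.16, chromosome 8, 111623785 to 111630374) held 89 (NC 1), 111 (NC 2), 185 (KO 1) and 142 (KO 2) counts. The level was 7.83 and 8.02 CPM in NC and 14.04 and 10.5 CPM in KO. The NC libraries were close together, and KO 1 stood furthest above them. Ldhd rose by 0.63 on the log2 scale (SE 0.18, 95% interval 0.26 to 0.999, edgeR quasi-likelihood, adjusted p = 0.00670). The call was lost without KO 1 (log2 fold change 0.41, adjusted p = 0.141), with DESeq2 (adjusted p = 0.0579) and in limma fits on filtered TPM (0.123 and 0.1305). Its exons share 2246 bases with those of Znrf1 on the other strand, and whether reads were counted by strand is not given in the sources used here, so its reads are uncertain. For Znrf1 the log2 fold change was 0.080 (adjusted p = 0.565). The authors' mean transcript length for Ldhd was 2767 to 3122 bases, above the 2273 bases of its annotated coding transcript and below the 3402 and 4102 bases of its retained-intron transcripts.

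The glyoxalase steps that feed Ldhd were read from a list of 7 genes for methylglyoxal removal and related hydroxyacid oxidation, all of them tested. D2hgdh, which oxidises D-2-hydroxyglutarate, rose from 4.13 ± 0.013 to 7.08 ± 0.25 CPM (n = 2), a log2 change of 0.78 (SE 0.23, adjusted p = 0.00732), and it did not pass with DESeq2 or on TPM. Akr1b3, aldose reductase, fell from 251.0 ± 13.9 to 194.8 ± 7.57 CPM, with a log2 fold change of -0.37 (adjusted p = 0.00232). The glyoxalase genes Glo1 (-0.19, adjusted p = 0.197) and Hagh (-0.038, adjusted p = 0.846) did not pass. In all 1 gene was higher, 1 was lower and 5 did not pass, where 19.7% of all genes tested were higher and 18.2% lower. The 7 genes had a median log2 fold change of -0.19, which was -0.088 without NC 1, -0.087 without KO 1 and -0.042 on log2(TPM + 1).

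Slc16a1 encodes MCT1, which carries lactate in either direction. Its row (ENSMUSG00000032902.1, chromosome 3, 104638668 to 104658462) held 958 (NC 1), 1141 (NC 2), 958 (KO 1) and 986 (KO 2) counts. The level was 84.3 and 82.4 CPM in NC and 72.7 and 73.0 CPM in KO. Both KO libraries lay below both NC libraries, and within each group the libraries were within 2 CPM of each other. A log2 fold change of -0.19 resulted (SE 0.09, 95% interval -0.38 to -0.0023). It had an unadjusted p of 0.0475 and an adjusted p of 0.103 (edgeR quasi-likelihood) and did not pass. With the trend on gene length removed it was -0.28 (adjusted p = 0.0132).

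The other lactate carriers were near the limit of detection. Slc16a3 encodes MCT4, the export carrier of glycolytic cells, and had 8 (NC 1), 3 (NC 2), 12 (KO 1) and 5 (KO 2) counts. The exact Poisson 95% intervals of these counts, which cover counting error only, were 3.45 to 15.8, 0.619 to 8.77, 6.20 to 20.96 and 1.62 to 11.7, and they overlapped between all libraries. Slc16a7, which encodes MCT2, had 1 count, in NC 2. Slc16a1 accounted for 97.8% and 99.3% in NC and 97.6% and 99.2% in KO of the summed TPM of the lactate carrier genes Slc16a1, Slc16a3, Slc16a7 and Slc16a8. Its share of the whole SLC16 family was 24.1% to 26.04% in NC and 24.07% to 25.6% in KO, and the groups overlapped.

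Bsg encodes basigin (CD147), the glycoprotein that escorts MCT1 and MCT4 to the plasma membrane. Its row (ENSMUSG00000023175.15, chromosome 10, 79704491 to 79711969) held 13041 (NC 1), 15640 (NC 2), 25335 (KO 1) and 31346 (KO 2) counts, and no other annotated gene shares its exons. The level was 1147 and 1129 CPM in NC and 1923 and 2321 CPM in KO. Each KO library was far above both NC libraries, and KO 2 was above KO 1. Bsg rose by 0.90 on the log2 scale, or 1.86-fold (SE 0.10, 95% interval 0.69 to 1.11, edgeR quasi-likelihood, adjusted p = 1.00e-07). Leaving out 1 library in turn gave values from 0.76 without KO 2 to 1.03 without KO 1, and each of those passed. The authors' mean transcript length for Bsg was 1259 to 1260 bases in all libraries, near the annotated Bsg-202 (1240 bases) and Bsg-205 (1261 bases) and below the longer Bsg-201 (1526 bases).

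Emb, the other ancillary protein gene, had 3 (NC 1), 1 (NC 2), 0 (KO 1) and 1 (KO 2) counts and was not tested. Nptn, the neuroplastin gene of the same immunoglobulin family, had means of 106.3 ± 1.54 CPM for NC and 111.5 ± 5.56 CPM for KO (n = 2 each), a log2 difference of 0.069 (SE 0.09) that did not pass (adjusted p = 0.591). On the TPM scale Nptn was higher in both KO libraries (219.5 and 219.7 TPM) than in NC (171.2 and 179.2 TPM), but it passed in 0 of 14 alternative fits. Bsg made up 87.4% of the summed Bsg, Emb and Nptn TPM in each NC library, against 90.9% and 92.01% in KO. A list of basigin partners, which also held Nptn, had 8 tested genes, of which 1 was higher and 2 lower. Over all genes tested 19.7% were higher and 18.2% lower, so the list was close to the background. Mmp9, a matrix metalloproteinase, was higher by 0.58 (adjusted p = 0.000912), from 16.8 ± 0.88 to 25.1 ± 0.78 CPM. Slc7a5, the light chain of a CD98 amino acid transporter, was lower (-0.47, adjusted p = 0.000463) but did not pass in the TPM fits. Mmp14, a membrane-bound metalloproteinase, was lower by a small margin (-0.24, adjusted p = 0.0484), and it was at -0.14 without NC 2 and did not pass without NC 2, KO 1 or KO 2 (adjusted p = 0.426, 0.0966 and 0.0702), nor with DESeq2. The remaining 5, among them the cyclophilin gene Ppia (-0.24, adjusted p = 0.0558), did not pass. Ppia passed with DESeq2 (adjusted p = 0.0270) and without KO 1 (-0.30, adjusted p = 0.0214).

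**Figure D2:**
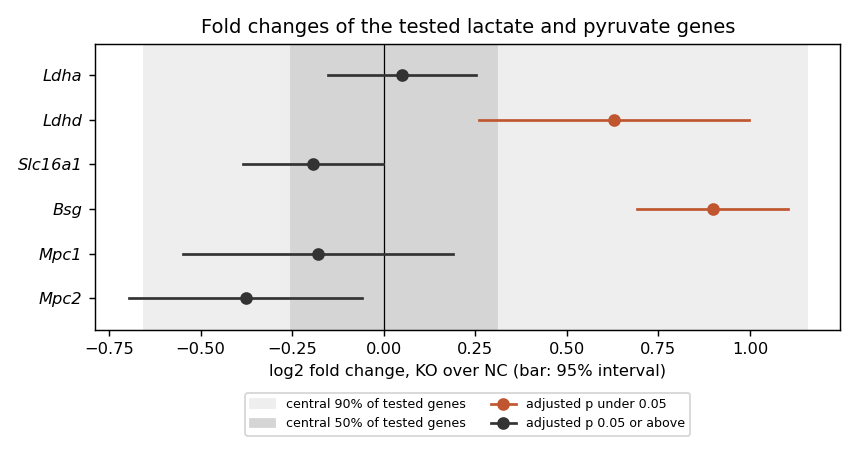
Log2 fold change of KO over NC (horizontal axis) for the 6 tested genes, with 95% intervals, in orange where the adjusted p is under 0.05. The grey bands hold the central 50% (-0.25 to 0.31) and central 90% (-0.65 to 1.16) of the 12510 genes tested, and all 6 values lie inside the wider band.

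Mpc1 and Mpc2 encode the subunits of the mitochondrial pyruvate carrier. Mpc1 (ENSMUSG00000023861.17, chromosome 17, 8282904 to 8297661) held 111 (NC 1), 125 (NC 2), 106 (KO 1) and 115 (KO 2) counts. Its level was 9.76 and 9.03 CPM in NC and 8.05 and 8.51 CPM in KO, lower in both KO libraries by little. Its log2 fold change, -0.18 (SE 0.18, 95% interval -0.55 to 0.19, adjusted p = 0.459, edgeR quasi-likelihood) did not pass. Its exons share 480 bases with 4930506C21Rik on the other strand, and the processed pseudogene Mpc1-ps, which may share its reads, held 6 to 16 counts.

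Mpc2 (ENSMUSG00000026568.6, chromosome 1, 165460637 to 165481214) held 190 (NC 1), 195 (NC 2), 166 (KO 1) and 149 (KO 2) counts. Its level was 16.7 and 14.1 CPM in NC and 12.6 and 11.03 CPM in KO. NC 1 was the highest library and both KO libraries lay below NC 2. Its log2 fold change was -0.38 (SE 0.16, 95% interval -0.70 to -0.059). It had an unadjusted p of 0.0219 and an adjusted p of 0.0560 (edgeR quasi-likelihood), just short of the threshold. It passed without KO 1 (-0.47, adjusted p = 0.0378) and in the robust fit (adjusted p = 0.0428), and it was -0.25 without NC 1 (adjusted p = 0.377). The authors' mean transcript length for Mpc2 was 1009 to 1144 bases and differed between libraries of one group, which moves its TPM apart from its counts.

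Ratios between the genes within a library, taken from TPM, do not depend on the scaling between libraries. The ratio of Bsg to Slc16a1 was 55.8 and 56.5 in the NC libraries, against 109 and 130.7 in those of KO. The ratio of Bsg to Ldha was 0.772 and 0.803 in NC, against 1.20 and 1.61 in KO, so that Bsg lay below Ldha in both NC libraries and above it in both KO libraries. The ratio of Ldha to the summed Mpc1 and Mpc2 was 40.7 and 46.5 in NC, against 57.9 and 56.4 in KO, also without overlap. Mpc2 over Mpc1 was 1.55 and 1.21 in NC, against 1.27 and 0.95 in KO, and overlapped. With 2 libraries against 2 no exact permutation test can give a p below 0.333, so these ratios carry no test.

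**Figure D3:**
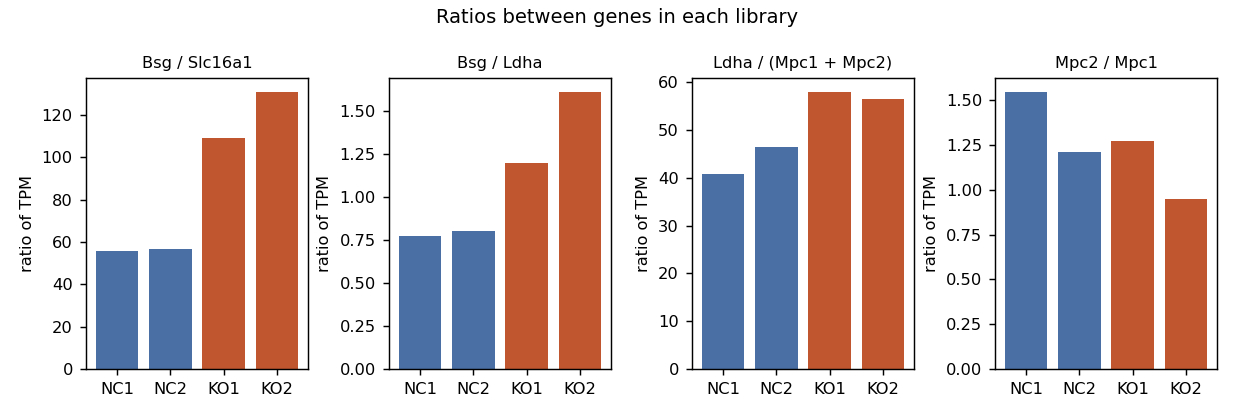
Ratios of TPM (vertical axes, from 0) between genes in each library, NC in blue and KO in orange. Bsg over Slc16a1, Bsg over Ldha and Ldha over the summed pyruvate carrier genes are higher in both KO libraries, while Mpc2 over Mpc1 overlaps between the groups.

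The remaining SLC16 genes and the sodium-coupled carrier genes were read as a list of 13, of which 7 were tested. Slc16a10, an aromatic amino acid carrier gene, fell from 82.5 ± 2.83 to 64.4 ± 0.55 CPM (n = 2), a log2 change of -0.36 (adjusted p = 0.00376, edgeR quasi-likelihood), and Slc16a12, a creatine carrier gene, fell from 4.38 ± 0.34 to 2.06 ± 0.23 CPM (-1.09, adjusted p = 0.00508). Slc16a4 was lower as well (-0.36, adjusted p = 0.0147), but its value was -0.23 without NC 1 (adjusted p = 0.214) and -0.22 without KO 1 (adjusted p = 0.161), and it did not pass with DESeq2. None of these 3 passed in the TPM fits. Of the 7 tested 3 were lower, against 18.2% of all genes tested, and 3 did not pass. The median of the 7 was -0.14 (0.0015 without NC 1).

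Around the branch point, 18 genes of pyruvate supply and fate were tested, and 6 were higher, 4 lower and 8 did not pass, with a median log2 fold change of 0.051 that turned to -0.028 without NC 1, where 6 passed in place of 10. For comparison, 19.7% of all genes tested were higher and 18.2% lower. Pdk1 and Pdk2 encode kinases that switch off pyruvate dehydrogenase. Pdk1 rose from 111.5 ± 3.90 to 201.6 ± 7.89 CPM (n = 2), a log2 change of 0.85 (adjusted p = 5.08e-08), and Pdk2 rose from 1.76 ± 0.25 to 6.14 ± 0.32 CPM, by 1.81 (adjusted p = 1.90e-05). Pcx, pyruvate carboxylase, rose by 0.78 (adjusted p = 0.000195), and Gpt2, the mitochondrial alanine aminotransferase that interconverts pyruvate and alanine, rose by 0.46 (adjusted p = 0.00332). Gpt2 did not pass in the TPM fits.

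Cytosolic NADH can also be reoxidised by the malate-aspartate and glycerol-phosphate shuttles instead of lactate dehydrogenase. Of 10 shuttle genes, all tested, 4 were lower, 0 were higher and 6 did not pass (edgeR quasi-likelihood), with a median log2 fold change of -0.25. Of all genes tested 18.2% were lower and 19.7% higher. An unadjusted p under 0.05 was reached by 8 shuttle genes, and by 5832 of all 12510 genes. Among those 8, Slc25a12 was higher in both KO libraries (0.26, adjusted p = 0.0634). With upper-quartile scaling or the length trend removed, 1 shuttle gene passed as higher and 4 as lower. The number of lower genes was 2 without NC 1, NC 2 or KO 2 and 1 in the filtered TPM fits. The mitochondrial aspartate-glutamate carrier gene Slc25a13 fell from 38.3 ± 5.44 to 24.9 ± 0.44 CPM (n = 2), a log2 change of -0.63 (adjusted p = 0.000164). Mdh2, mitochondrial malate dehydrogenase, fell from 791.0 ± 28.5 to 601.9 ± 61.6 CPM (-0.39, adjusted p = 0.00198) but did not pass in the TPM fits. Gpd1l, a glycerol-3-phosphate dehydrogenase gene, and Got1, the cytosolic aspartate aminotransferase gene, fell as well (-0.33 and -0.26, adjusted p = 0.0152 and 0.0247), but neither passed without NC 1, without NC 2 or without KO 2 (Gpd1l -0.31, -0.33 and -0.30, adjusted p = 0.0709, 0.0576 and 0.0703, Got1 -0.26, -0.25 and -0.24, adjusted p = 0.0964, 0.104 and 0.0746).

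The pyruvate carrier was also set beside 25 tested genes of other mitochondrial carriers. Of these 7 were lower, 2 higher and 16 did not pass, where 18.2% of all genes tested were lower and 19.7% higher. The 25 carrier genes had a median of -0.21. Without KO 2 6 were lower and 0 higher (9 at an unadjusted p under 0.05, edgeR quasi-likelihood), without NC 1 or NC 2 1 was higher, and on filtered TPM 3 were lower. Slc25a5, an ADP/ATP carrier gene, fell from 155.5 ± 4.07 to 87.2 ± 5.41 CPM (n = 2), a log2 change of -0.83 (adjusted p = 9.31e-08). Slc25a3, the phosphate carrier gene, fell from 430.7 ± 9.52 to 304.9 ± 23.8 CPM (-0.50, adjusted p = 0.000126), and Slc25a32, a folate or FAD carrier gene, fell too (-0.81, adjusted p = 2.69e-05), as did Slc25a24, a carrier gene for ATP-Mg and phosphate (-0.39, adjusted p = 0.00117). Slc25a24 did not pass in the TPM fits. The values of Mpc1 and Mpc2, -0.18 and -0.38, lay within the range of this list, -0.83 to 1.26.

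**Figure D4:**
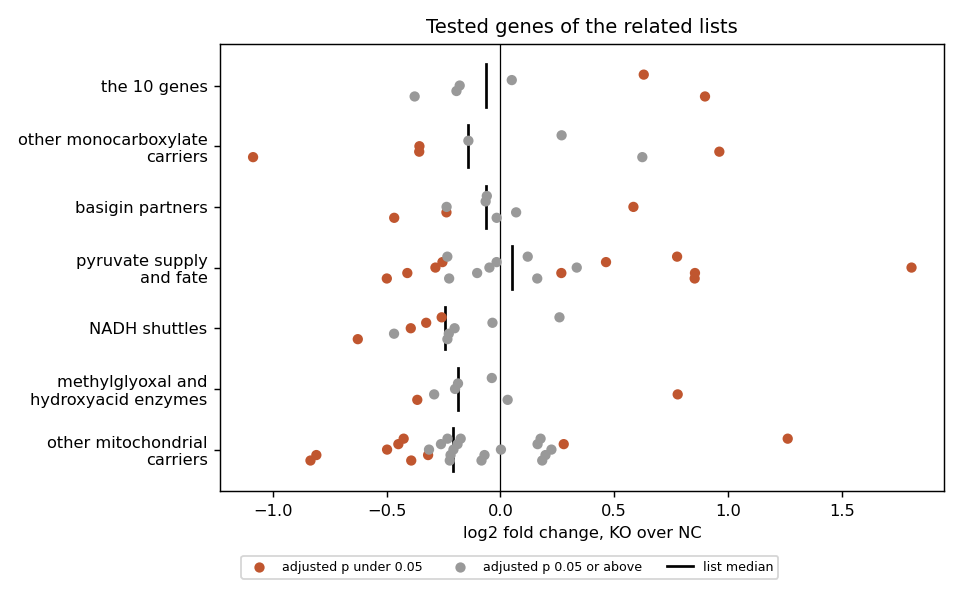
Log2 fold change of KO over NC (horizontal axis) for each tested gene of 7 lists (rows), in orange where the adjusted p is under 0.05, with the list median as a black line. The shuttle and other mitochondrial carrier lists have medians of -0.25 and -0.21, and the orange points of the 10 genes are Bsg and Ldhd.

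Among 21 genes of factors that act on this route, all tested, 5 were higher, 4 lower and 12 did not pass. The shares over all genes tested were 19.7% higher and 18.2% lower. These 21 genes had a median of 0.064 (-0.0043 with the length trend removed). Without NC 1 the counts were 3 higher and 5 lower, with a median of 0.019, and without KO 2 they were 3 and 4. Mlxipl, which encodes the glucose-responsive factor ChREBP, rose from 5.42 ± 0.42 to 29.6 ± 1.97 CPM (n = 2), a log2 change of 2.45 (adjusted p = 3.00e-12). Egln3 and Egln1, oxygen-sensing hydroxylase genes, rose by 1.03 (adjusted p = 1.56e-09) and 0.47 (adjusted p = 0.000215), while Egln2 of the same family fell from 32.5 ± 1.82 to 22.9 ± 1.15 CPM (-0.50, adjusted p = 0.00166). Trp53, the p53 gene, fell from 551.2 ± 2.88 to 336.5 ± 32.9 CPM (-0.71, adjusted p = 1.44e-06). Hif1a (-0.11, adjusted p = 0.381) and Myc (-0.24, adjusted p = 0.0593), whose products are known activators of Ldha, did not pass. Myc passed without NC 1 (-0.35, adjusted p = 0.0177) and without KO 1 (-0.36, adjusted p = 0.00441).

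Genes around each of the 6 were read within 250 kb of its start site. Of 21 tested neighbours of Bsg 4 were higher and 3 lower, where 19.7% of all genes tested were higher and 18.2% lower. The neighbours had a median log2 fold change of 0.12, against -0.0037 over all. The counts were 6 and 2 without NC 1, 3 and 2 without NC 2, 4 and 4 without KO 1 (median 0.077), and 4 and 2 without KO 2. Hcn2, a channel gene whose start lies 12.1 kb downstream, rose from 22.4 ± 1.93 to 49.5 ± 6.07 CPM (n = 2), a log2 change of 1.14 (SE 0.12, adjusted p = 2.45e-08). Fstl3, an activin-binding protein gene 72.8 kb downstream, and Plppr3, 170.1 kb downstream, rose by 2.18 (SE 0.15) and 2.85 (SE 0.21). The genes with positive and negative values were interleaved along the window, and 12 of the 21 had positive values.

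**Figure D5:**
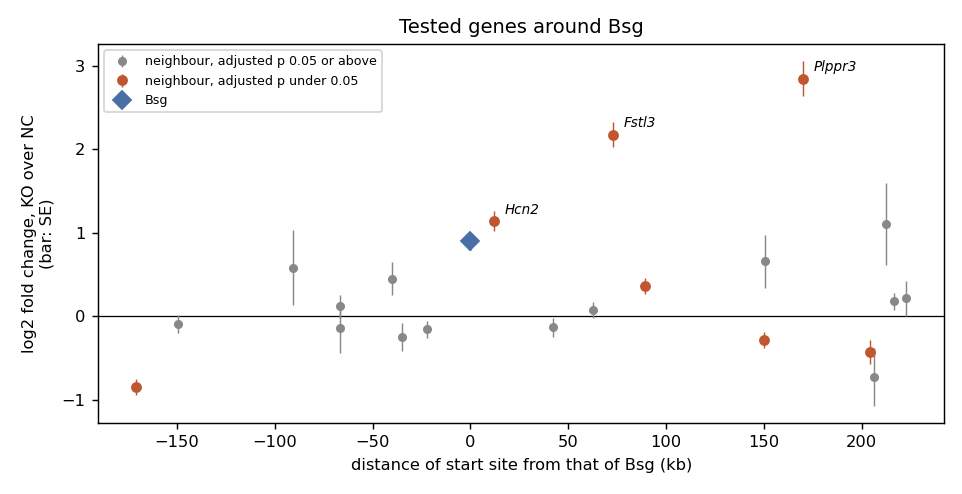
Log2 fold change of KO over NC with its SE (vertical axis) for the 21 tested genes within 250 kb of the start of Bsg, by distance (horizontal axis, kb), with Bsg as the blue diamond. Hcn2, Fstl3 and Plppr3, downstream of Bsg, are the 3 neighbours with the lowest p, and Plpp2, at -0.85, is the lowest of the others.

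Where 37.9% of all genes tested passed, 1 of 6 tested neighbours of Mpc2 did. This was Dcaf6, a ubiquitin ligase adaptor gene whose start lies 0.2 kb from that of Mpc2, and it rose from 19.3 ± 2.47 to 28.9 ± 3.78 CPM (n = 2), a log2 change of 0.57 (SE 0.13, adjusted p = 0.00138), while Mpc2 had a value below 0. Around Ldhd 0 of 6 neighbours passed (edgeR quasi-likelihood), with 1 at an unadjusted p under 0.05, and their median was 0.044, against 0.63 for Ldhd. DESeq2 called 0 as well, and without NC 2 the count was 1, with a median of -0.020. Around Slc16a1 1 of 6 was higher (Ppm1j, 2.04, adjusted p = 0.000115) and 1 lower (Mov10, -0.47, adjusted p = 0.000463). Around Ldha 2 of 9 were higher (Spty2d1, 0.48, and Tmem86a, 0.62) and 1 lower (Gtf2h1, -0.36), and around Mpc1 1 of 3 was higher (Fgfr1op, 0.50) and 1 lower (Sft2d1, -0.88). Mov10, Spty2d1, Tmem86a, Gtf2h1 and Fgfr1op did not pass in the TPM fits. The Fgfr1op call was lost without NC 1, NC 2 or KO 1 (0.36 to 0.58, adjusted p = 0.171, 0.0667 and 0.224), the Tmem86a call without NC 2 or KO 2 (0.45 and 0.35, adjusted p = 0.102 and 0.187) and the Gtf2h1 call without NC 1 (-0.32, adjusted p = 0.0653).

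The genes whose profile over the 4 libraries was most like that of Bsg were sought by distance. It was taken between log2(CPM + 0.5) profiles centred on each gene's mean. The 3 nearest were Ccdc171 (distance 0.037), Kctd11 (0.041) and Slc2a3 (0.045), with log2 fold changes of 1.14, 0.91 and 0.90. The added 0.5 shrinks the group difference of a gene at low CPM, so the small distance of Ccdc171 rests on it. Slc2a3 encodes the high-affinity glucose transporter GLUT3 and had means of 47.8 CPM for NC and 88.9 CPM for KO. Ccdc171 was low, with means of 1.27 CPM for NC and 2.81 CPM for KO, and its call was lost without NC 2 (adjusted p = 0.0586) and without KO 2 (adjusted p = 0.149). With 4 libraries in 2 groups many genes share such a profile, and the distance is a description only.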

How the data were processed

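RNA of 4 Hepa1-6 libraries, 2 per group by sample title, was sequenced from directional libraries of total RNA. The submitters' processing notes name FastQC, STAR, RSEM, DESeq2 and the build GRCm38/mm10, without versions or roles; the annotation release and strand setting are not given in the sources used here. The deposited expected counts are the authors' RSEM-type estimates per gene with no scaling, per the file headers, and reads of near-identical genes can be split among them. The deposited TPM were scaled by the authors for transcript length and library total, per the file headers, and the length columns are isoform-weighted.

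Expected counts were rounded (totals changed by at most 0.000188%), filtered with filterByExpr, scaled by TMM (0.981 to 1.02) and compared with edgeR's quasi-likelihood test (edgeR 4.0.16, R 4.3.3), group as the only term, Benjamini-Hochberg adjusted over 12510 genes, threshold 0.05, two-sided. Unless stated, adjusted p-values are from this fit. Alternatives used DESeq2 1.42.0 and limma 3.58.1 on log2(TPM + 1) or log2(TPM + 0.1). Only the main edgeR fit and a limma fit were tried on simulated counts, which had the same dispersion for every gene. Positions and overlaps are from GENCODE release M21 (54809 of 54838 genes matched), promoters from RefSeq.

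The genes and lists were chosen with earlier results of these data known. Named from each list are up to 4 called genes of lowest p, up to 3 called neighbours per gene and the 3 profiles nearest to Bsg; others were chosen after their values were seen. Among the related genes, 1 that the naming rule covers is not reported here.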

Additional observations from a re-analysis of the deposited data

How the results depend on the processing

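Of the 6 tested genes, 2 passed under 3 count settings (DESeq2 size factors, upper-quartile scaling, no filter) and in the fits without 1 library (2 in each; without KO 1 these were Bsg and Mpc2), and 3 passed in the robust fit, with the length trend removed and with the replicate block (the additional gene was Slc16a1 with the length trend removed and Mpc2 in the others). DESeq2's Wald test gave 1, limma on filtered log2(TPM + 1) gave 1 and on log2(TPM + 0.1) gave 1, in each case Bsg. Limma on unfiltered TPM gave 0 (1 at an unadjusted p under 0.05).

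Over all genes, 4741 passed (2459 higher, 2282 lower). Limma on filtered log2(TPM + 1) gave 2158 (1467 higher, 691 lower), on log2(TPM + 0.1) 2099 (1427 and 672) and on unfiltered TPM 0 of 20640 (4506 at an unadjusted p under 0.05). The cause was not tested. Fits without 1 library gave 3586 to 4472. Bsg kept its direction in all 14 alternatives (0.76 to 1.03) and passed in 13, with adjusted p = 0.0833 in unfiltered TPM. Ldhd kept its direction in 14 (0.41 to 0.82) and passed in 9. Ldha ran from -0.053 without KO 1 to 0.148 without KO 2. Slc16a1, Mpc1 and Mpc2 kept theirs. Among other genes that did not pass, Hagh turned to 0.0038 on log2(TPM + 1), filtered or not, 0.0039 on log2(TPM + 0.1), 0.058 with the length trend removed, 0.0096 without NC 1 and 0.0059 without KO 2, with a lowest value of -0.082, and Hif1a turned to 0.026 on log2(TPM + 1), filtered or not, and 0.027 on log2(TPM + 0.1). Of 50 called genes chosen for naming, 43 passed with DESeq2, 32 in each filtered TPM fit, 0 in unfiltered TPM, and 44 to 46 without 1 library.

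The labels share replicate numbers, but same-numbered libraries did not deviate together (correlation -0.012 across genes). With the replicate block 5006 genes passed, and among the 6 Mpc2 also passed (-0.38, adjusted p = 0.0384). With 2 libraries per group and 457 to 700 counts for Mpc1, Ldhd and Mpc2, their intervals are wide, and the 4 genes under the filter had at most 28 counts each over all libraries. In the fit with no filter none of those 4 passed (edgeR, unadjusted p from 0.330 to 0.475, adjusted p from 0.579 to 0.643).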
